A study of Cavia porcellus with 18 samples.

Results

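Fully methylated CG sites are described here in the hippocampus of 3 guinea pigs (Cavia porcellus), which were 12-week wild type males with no treatment or second group named. A site was counted as fully methylated when it was listed at 100% in each of 2 bisulfite assays, so it was selected by those levels. One assay, ChIP-bisulfite sequencing, reads methylation on sonicated DNA that was precipitated with the H3K4me1 antibody ab8895. The other, reduced representation bisulfite sequencing (RRBS), reads genomic DNA after digestion by MspI and ApeKI, whatever its chromatin. Of the 167387 distinct CG sites listed for both assays, 18847 were fully methylated, which is 11.3% of them. The other 148540 sites served for comparison, together with a closer set of 19511 sites that were at 80% or more in both assays but not at 100% in both, called nearly full sites below.

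Methylation of the cytosine in a CG is kept through cell division by enzymes that copy it from one DNA strand to the other. It is the usual state of CG sites in mammalian gene bodies and between genes, while CG-rich start sites of genes are usually free of it. H3K4me1, monomethylated lysine on histone H3, is typical of enhancers and of chromatin beside promoters. RNA polymerase II phosphorylated on serine 5 (Pol II PS5) is the form found where transcription begins. Bisulfite sequencing reads hydroxymethylated cytosine, which is plentiful in brain, as methylated, so the 2 forms cannot be told apart at these sites.

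Every deposited value pooled the 3 animals. No spread between animals could be computed, so no test was run and the differences below are descriptions. Intervals are exact 95% binomial intervals, which cover counting error only. They are too narrow as errors of a comparison, since sites share H3K4me1 peaks and reads. All shared sites lay within H3K4me1 peaks and were listed with a gene, from 10 kb upstream of its start site onwards, so sites farther upstream were not described. A peak here is one of the 327682 H3K4me1 or 67423 Pol II PS5 peaks deposited by the authors.

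The limit of 100% left out sites listed lower in either assay, but with few reads it did not exclude a lower true level. At 100% in RRBS lay 30701 sites, of which 61.4% were also at 100% in ChIP-bisulfite. At 100% in ChIP-bisulfite lay 48582 sites, of which 38.8% were also at 100% in RRBS. Just outside the limit were 2216 sites at 95 to 99% in RRBS and 100% in ChIP-bisulfite, 562 sites with these levels the other way round, and 91 sites at 95 to 99% in both. A further 3216 sites were at 100% in RRBS but at 0% in ChIP-bisulfite.

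A level of 100% meant different things at different depths. Fully methylated sites had a median of 15 RRBS reads (middle 50% of sites 12 to 22, range 10 to 154), against 21 for nearly full sites and 17 for all other sites (middle 50% of sites 13 to 27). With 15 methylated reads of 15 the exact interval reaches down to a level of 78.2%, and with 10 of 10 it reaches down to 69.2% (2381 sites had 10 reads). At 20 reads or more there were 5828 fully methylated sites and the limit at 20 reads was 83.2%. Only 247 had 60 reads or more, where the limit was 94.0% or better. The share of shared sites that were fully methylated was 14.9% at 10 reads, 10.1% at 21 to 25 reads and 3.60% above 60 reads. The share at 100% in RRBS alone went with it, being 26.55% at 10 reads and 4.72% above 60, while the share at 100% in ChIP-bisulfite was 28.62% and 27.15% in the same classes. ChIP-bisulfite reads per site were not given. Over all lines of the authors' table of peak averages they came to a median of 15.97 reads per C position and never under 10. Among sites at 100% in RRBS, 56.2% were at 100% in ChIP-bisulfite at 10 RRBS reads and 76.25% above 60, so the deeper RRBS calls were matched more often. For these reasons the shares by distance, place in the peak, peak width, peak score, CG density and Pol II were also computed with 20 RRBS reads or more. The counts by peak, gene and start site and the comparisons of neighbouring sites were not.

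Fully methylated sites were scarce around start sites and more frequent far downstream of them. Gene ends were not used here, so sites inside and beyond a gene were not told apart. Within 1000 bases of the nearest listed start site lay 5.49% of them (1035 sites, interval 5.17 to 5.83), 6.16% of nearly full sites (5.82 to 6.50) and 14.7% of all other sites (14.49 to 14.85). The value over all shared sites was 13.6%. Their median distance from a start site was 14317 bases (13637 to 15048), against 12125 for nearly full and 7932 for all other sites (7848 to 8005). Upstream of the start site lay 19.4% of fully methylated sites and 28.4% of the others, and more than 10000 bases downstream lay 55.6% and 43.2%. On each of the 52 scaffolds with at least 100 fully methylated sites, the share near start sites was lower for them than for the others, by -0.945 to -19.0 percentage points.

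The profile along the gene was not symmetric. In the 500 bases before the start site 3.50% of shared sites were fully methylated (interval 3.02 to 4.04), the lowest class. In the first 500 bases after it the share was 5.04% (4.50 to 5.63). It was 11.2% at 1000 to 2000 bases downstream (10.49 to 11.98) but 7.58% at 1000 to 2000 bases upstream (6.997 to 8.193). These intervals cover counting error only, and the difference between upstream and downstream was not tested. Even at 5 to 10 kb upstream the share came to 10.2%, below the 12.0% at 5 to 10 kb downstream. From 20000 bases downstream onwards the share lay between 14.1% and 14.7% in each class, including sites more than 200000 bases into or beyond a gene (14.2%). With 20 reads or more the shares were lower throughout, at 2.17% just upstream of the start site and 11.1% at 100000 to 200000 bases downstream.

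**Figure D1:**
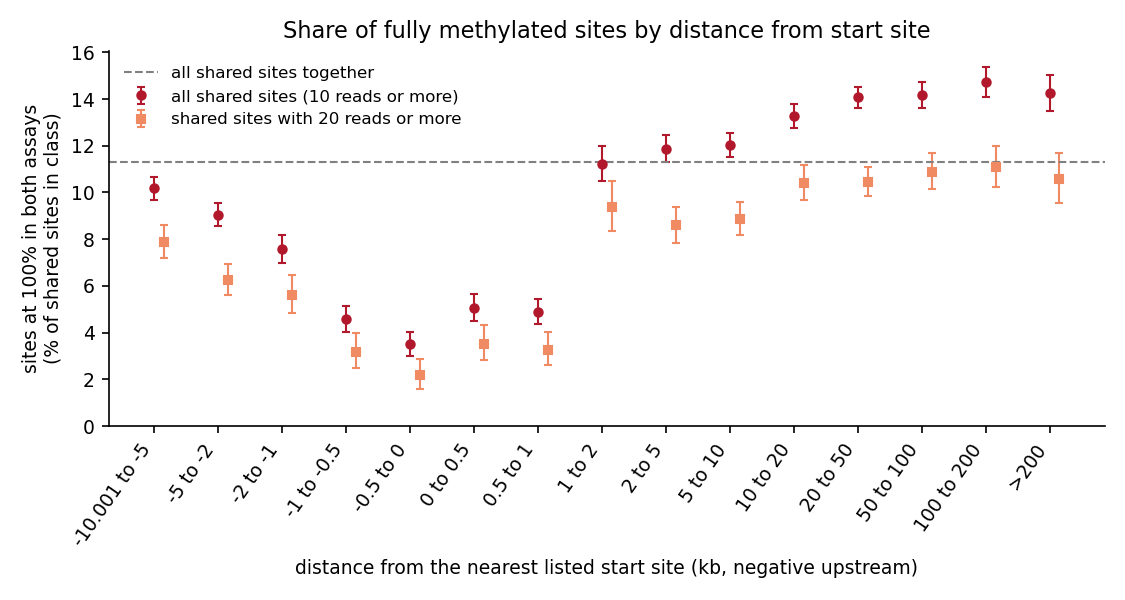
Share of shared CG sites listed at 100% in both assays (y axis, percent of the sites in each class) by distance from the nearest listed start site (x axis, kb, negative upstream), for all shared sites and for those with 20 RRBS reads or more; bars are exact 95% binomial intervals and the dashed line marks 11.3%, the share over all shared sites. The share was 3.50% in the 500 bases before the start site and above 14% from 20 kb downstream.

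Few start sites were fully methylated over several sites. Shared sites lay within 1000 bases of the start site of 6948 genes, and 840 of these genes (12.1%) had at least 1 fully methylated site there. Among 3022 genes with 3 or more such sites, 374 had a fully methylated one and in 8 (0.265%) every site was. Of all shared sites within 1000 bases 4.54% were fully methylated. Counted over all distances, 45.2% of 17676 genes had a fully methylated site. Of the 12980 genes with 3 or more shared sites, 0.177% had no other kind, which is not above the share at start sites. These counts were not matched for the number of sites per gene. The gene ENSCPOG00000013131 had 5 of 5 sites fully methylated, 23 to 224 bases downstream of its start site at position 20678437 of scaffold_30, at a median of only 10 reads. The gene ENSCPOG00000021799, with its start site at 24931008 of scaffold_22, had 5 of 9, with a mean level of 89.4% in ChIP-bisulfite and 95.8% in RRBS and a median of 24 reads. Both genes carried a Pol II score in the authors' table (7.26 and 4.89). None of these 14 sites lay in a Pol II PS5 peak, where 2.22% of all shared sites lay. A score was given for 54.5% of the 840 genes with a fully methylated site there and for 63.4% of the 6108 without. A further start site, not named here, had 5 fully methylated sites of 14, with mean levels of 79.8% in ChIP-bisulfite and 76.7% in RRBS. The files pair no gene ID with a name, so what these genes encode is not given.

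Inside H3K4me1 peaks, fully methylated sites lay in the outer part more often than other sites, although most of them were in the inner part. The outer 50% of the peak width, 25% on each side, held 45.04% of them (interval 44.32 to 45.75), 42.8% of nearly full sites and 38.0% of all other sites (37.8 to 38.3), against 38.8% over all shared sites. Counted in bases, 17.0% lay within 500 bases of an edge (16.47 to 17.55), against 13.3% of nearly full sites (12.8 to 13.7) and 7.49% of all others (7.35 to 7.62). Sites at 100% in ChIP-bisulfite only were closer to them, with 14.7%, than sites at 100% in RRBS only, with 9.66%. Within 200 bases of an edge the shares were 6.93% for fully methylated sites, 0.552% for the 25738 sites at 0% in both assays, and 2.37% for all sites that were not fully methylated.

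Read the other way, the share of fully methylated sites fell off from the edge inwards. Of the shared sites within 100 bases of an edge 29.2% were fully methylated (27.27 to 31.15). The share was 25.4% at 100 to 200 bases, 19.98% at 200 to 500 bases, 12.6% at 500 to 1000 bases and 9.89% at 1000 to 2000 bases, and it varied little farther in. With 20 RRBS reads or more the same classes gave 22.5%, 20.4%, 14.8%, 9.04% and 7.41%. This limit was on RRBS reads only. ChIP-bisulfite reads per site were not given, so whether their depth changed towards the edge was not tested. The gradient was present in peaks of 5000 bases or more, with 26.5% within 200 bases of an edge and 9.61% beyond 2000 bases, and in narrower peaks, with 27.1% within 200 bases and 9.82% at 1000 to 2000 bases. It was also present away from start sites, where 27.5% within 200 bases of an edge and 10.6% beyond 2000 bases were fully methylated. With the peak bounds of the authors' table of averages, which splits many of these peaks into shorter ones, the outer 50% of the width held 51.2% of fully methylated sites and 44.7% of the others.

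Fully methylated sites were more frequent in narrow peaks, in peaks on the lower of the score scales and in CG-poor peaks. In peaks under 500 bases wide 24.96% of the shared sites were fully methylated (21.63 to 28.52, 158 sites), in peaks of 2000 to 3000 bases 14.1% and in peaks of 20000 bases or more 9.40%. Among sites at least 500 bases from an edge the share was 12.2% in peaks under 2000 bases, 10.6% in peaks of 5000 to 7500 bases, 8.98% in peaks of 10000 to 20000 bases and 9.39% in wider ones. Peaks under 1000 bases cannot hold such sites, so the narrowest classes do not enter this comparison. The median width of the peak that held the site was 5768 bases for fully methylated sites (5681 to 5851), 6362 for nearly full sites and 6819 for all others (6771 to 6864). It was 5856 bases for sites at 100% in ChIP-bisulfite only (5798 to 5935) and 6928 bases for those at 100% in RRBS only. The lower width was thus not particular to sites at 100% in both assays. When each peak was counted once per group the order of fully methylated and all other sites turned round. The median was then 5011 bases for peaks holding a fully methylated site and 4386 bases for peaks holding another site. Peaks with more shared sites have more chances to hold one of each kind.

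The authors' H3K4me1 peak score is on 2 scales in 1 column, one from 1.266 to 14.85 and one from 42 upwards, and how the scales relate is not given in the sources used here. Peaks were ranked by score only within a scale, and otherwise described by the scale they were on. Peaks on the high scale held 90.1% of fully methylated sites (89.6 to 90.5), 92.2% of nearly full sites and 96.1% of all others (96.0 to 96.2), with 95.4% over all shared sites. They held 91.2% of sites at 100% in ChIP-bisulfite only and 94.2% of those at 100% in RRBS only. In peaks on the low scale 24.5% of the shared sites were fully methylated (1874 of 7658, 23.51 to 25.45), against 10.6% in peaks on the high scale. Along the high scale the share was 13.9% below a score of 52.5 and 8.97% from 65 upwards, where the limits are quartiles of all peaks on that scale. Along the low scale it stayed between 22.4% and 27.1% with no steady order. The fully methylated sites lay in a lower share on the high scale on all 52 scaffolds mentioned above.

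The number of CG positions per 1000 bases of peak, from the authors' table of averages, had a median of 25.9 around fully methylated sites, 26.6 around nearly full sites and 32.9 around all others. In the tenth of shared sites with the fewest CG positions 17.4% were fully methylated (16.8 to 17.9). In the tenth with the most, above 79.8 per 1000 bases, 2.98% were (2.73 to 3.25). The order held on both sides of the start site limit: within 1000 bases of a start site the share was 11.5% in the CG-poorest 25% of all shared sites and 2.50% in the CG-richest 25%, and beyond 1000 bases it was 15.8% and 7.67%. Distance from the start site, CG density, peak width and peak score moved together with full methylation, and their separate parts were not tested.

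**Figure D2:**
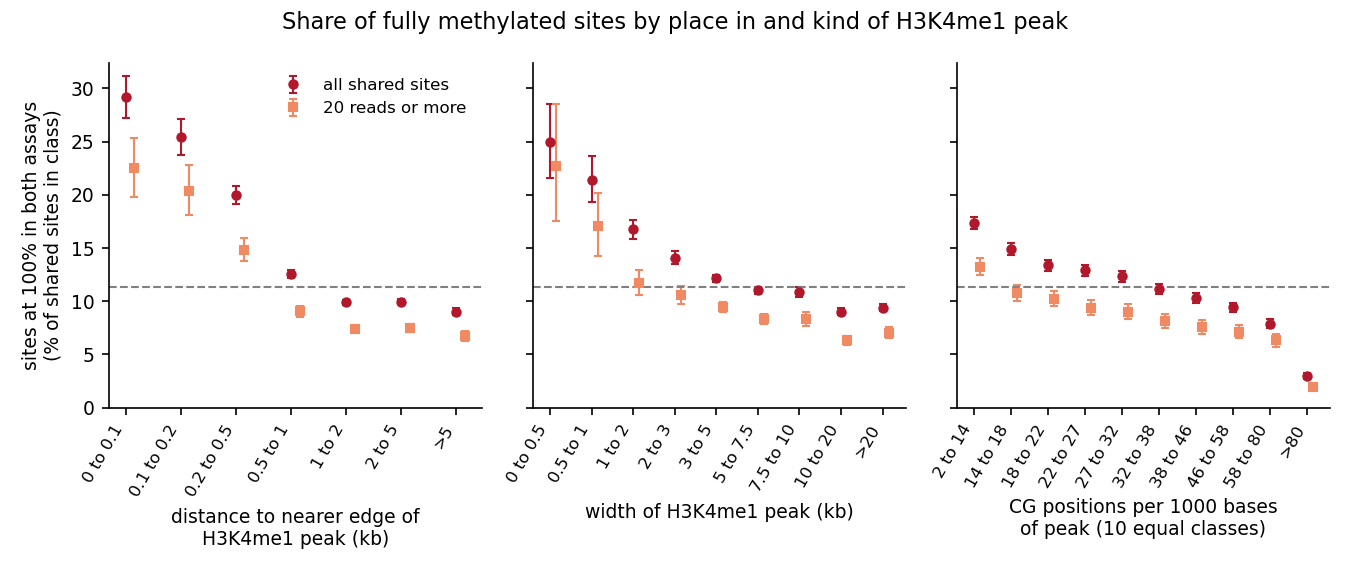
Share of shared CG sites at 100% in both assays (y axis, percent of the sites in each class) by distance to the nearer edge of the H3K4me1 peak (kb), by width of that peak (kb) and by CG positions per 1000 bases of the peak in the authors' table of averages, for all shared sites and for those with 20 RRBS reads or more; bars are exact 95% binomial intervals and the dashed line marks 11.3%. The share was 29.2% within 100 bases of an edge and near 10% from 1 kb inwards.

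Pol II PS5 peaks held few fully methylated sites. Inside such a peak lay 103 of them, or 0.547% (0.446 to 0.662), against 0.769% of nearly full sites (0.6511 to 0.9015) and 2.43% of all others (2.35 to 2.51). The value over all shared sites was 2.22%. Within 500 bases of a Pol II PS5 peak, inside included, lay 2.775% of fully methylated, 3.71% of nearly full and 8.81% of all other sites. Of the shared sites inside a Pol II PS5 peak 2.77% were fully methylated. The share was 4.25% outside but within 500 bases of one, 7.32% at 500 to 1000 bases, 11.5% at 1000 to 2000 bases and between 11.9% and 12.6% in the classes beyond. The median distance to the nearest Pol II PS5 peak was 13664 bases for fully methylated sites, 12805 for nearly full sites and 11427 for the others.

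Against all other sites, the low share under Pol II PS5 was seen near and far from start sites, and nearly full sites shared it. Within 1000 bases of a start site 1.06% of fully methylated sites (11 of 1035, 0.532 to 1.89) lay in a Pol II PS5 peak, 0.833% of nearly full sites (10 of 1201) and 6.82% of the others. Beyond 1000 bases the shares were 0.517%, 0.765% and 1.68%, and beyond 20000 bases downstream 0.503% (0.363 to 0.679), 0.509% and 0.935% (0.853 to 1.02). The 11 sites close to a start site lay in 9 Pol II PS5 peaks and had 10 to 18 RRBS reads, and none had 20. Among sites with 20 reads or more within 1000 bases, 0 of 288 fully methylated sites lay in a Pol II PS5 peak, which allows a share of up to 1.273%, against 8 of 615 nearly full sites and 791 of 9162 others.

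The 89 Pol II PS5 peaks with a fully methylated site were mostly far from start sites. Only 10.7% of the 103 sites were within 1000 bases of a start site, against 41.1% of the 3610 other sites in Pol II PS5 peaks. These 89 peaks had a median width of 235 bases and a median score of 3.18, against 337 bases and 3.63 for the 1377 Pol II PS5 peaks that held shared sites but no fully methylated one. In 60 of the 89 all shared sites were fully methylated, and in 55 of these 60 there was only 1 shared site. The other 1377 peaks were not counted in this way. The transcript had a Pol II score for 89.3% of the 103 sites and for 82.35% of the 3610 others.

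**Figure D3:**
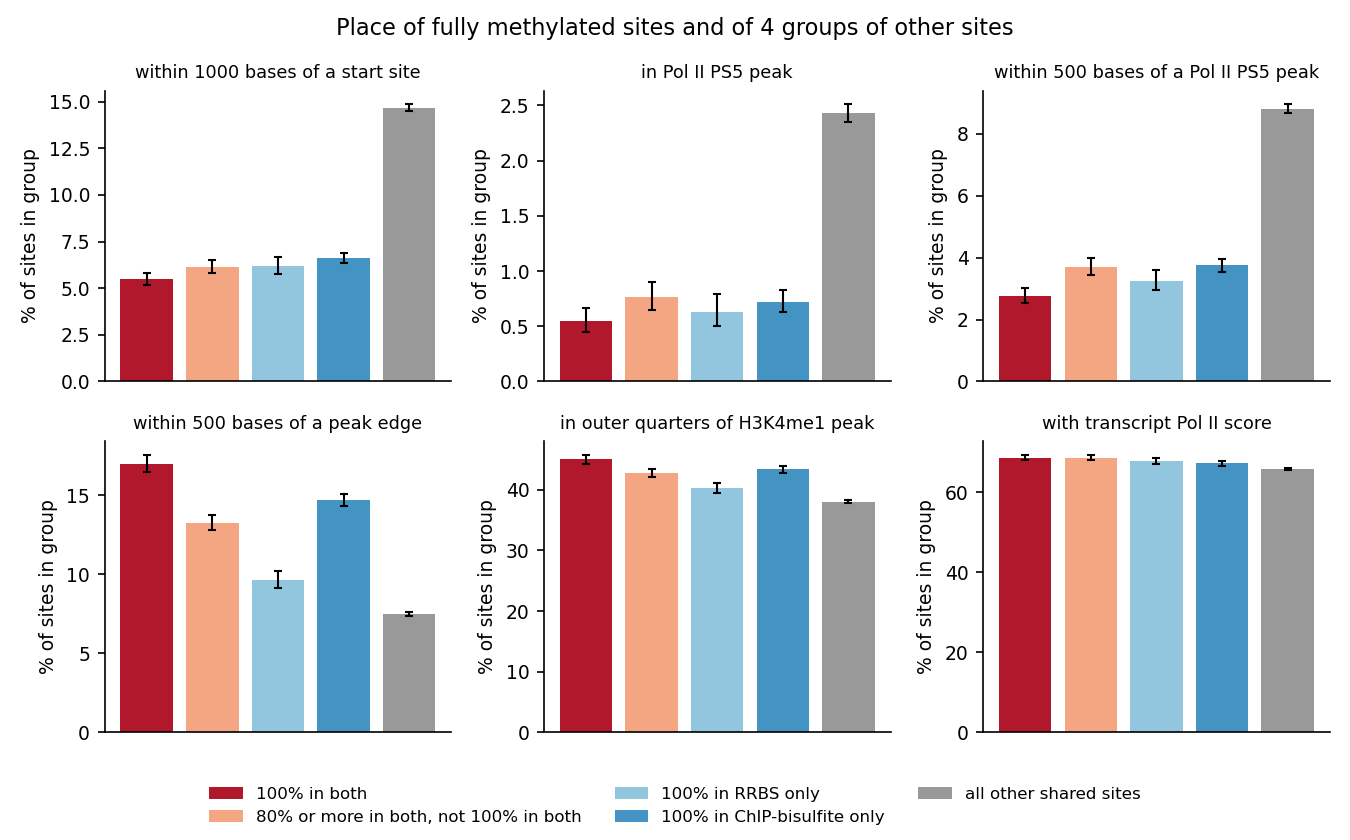
Percent of sites (y axis) with each of 6 properties among sites at 100% in both assays, sites at 80% or more in both but not 100% in both, sites at 100% in RRBS only, sites at 100% in ChIP-bisulfite only, and all other shared sites, which include the 3 groups between; bars show the share and lines the exact 95% binomial interval. The fully methylated group was below nearly full sites near start sites (5.49% against 6.16%) and within 500 bases of a Pol II PS5 peak (2.775% against 3.71%), and above them within 500 bases of a peak edge (17.0% against 13.3%).

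By the authors' Pol II score of the transcript, fully methylated sites differed little from the rest. A score above 0, taken as the highest over the transcripts a site was listed with, was given for 68.6% of fully methylated sites (67.9 to 69.2), 68.6% of nearly full sites and 65.8% of all others (65.6 to 66.1), with 66.1% over all shared sites. The difference between fully methylated and nearly full sites was 0.00167 percentage points. Among sites with a score its median was 3.52, 3.54 and 3.59 in the same groups. With the others weighted to the same distances from start sites, a choice made after these values were seen, the difference from all others was 0.386 points in place of 2.76.

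The direction was not the same near to and far from start sites. Within 1000 bases 55.9% of fully methylated sites (52.9 to 59.0), 58.7% of nearly full sites and 66.0% of all others (65.3 to 66.6) belonged to a transcript with a score. Beyond 1000 bases the shares were 69.3% (68.6 to 70.0), 69.2% and 65.8% (65.53 to 66.05). Beyond 20000 bases downstream they were 83.9%, 84.2% and 83.9%. Within 1000 bases 5.79% of the sites of transcripts without a score were fully methylated (5.285 to 6.33), and 3.13% of those of transcripts with a score of 4.69 or more (2.71 to 3.60). Beyond 1000 bases these shares were 11.2% and 12.8%. The score classes between them gave 12.4%, 13.4% and 12.85%, so there the share did not rise steadily with the score. With 20 reads or more the first and last class beyond 1000 bases gave 8.52% and 9.36%. The difference between the 2 distance classes was not tested.

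**Figure D4:**
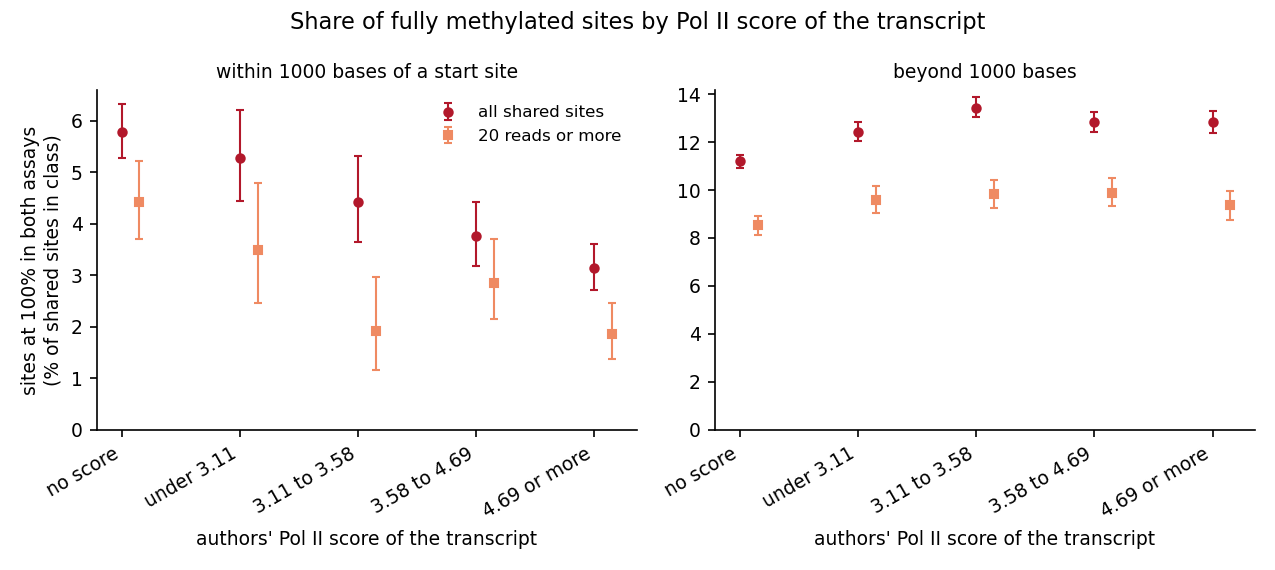
Share of shared CG sites at 100% in both assays (y axis, percent of the sites in each class) by the authors' Pol II score of the transcript (x axis; no score, then 4 classes of equal size over all scored sites), within and beyond 1000 bases of a start site; bars are exact 95% binomial intervals and the y axes differ. Close to start sites the share was 5.79% without a score and 3.13% in the highest class. Farther away it was 11.2% and 12.8%, with 13.4% in a class between.

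Fully methylated sites lay in many peaks and rarely filled one. They made up 11.3% of all shared sites, and over these sites the peak that held them had a median of 4 shared sites. The counts of peaks that follow were not made for another group of sites. Fully methylated sites lay in 13204 of the 45331 H3K4me1 peaks with a shared site (29.1%) and on 242 of 302 scaffolds. One such site was found in 9611 of these peaks, 2 in 2459 and 3 or more in 1134. In 3149 peaks it was the only shared site. Among the 18741 peaks with 3 or more shared sites, 7648 held a fully methylated one, 1124 had them at 50% or more of the sites and 91 (0.486%) consisted of nothing else. Of these 91 peaks 15.4% overlapped a Pol II PS5 peak and 76.9% were on the high score scale, against 29.1% and 97.6% of the other 18650. They had a median width of 3933 bases against 6029. However, 75 of the 91 held only 3 shared sites and 16 held 4, while the other peaks had no such upper limit. The groups were not matched for number of shared sites, so these differences cannot be told apart from the selection of peaks with few sites.

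In 16 peaks 4 shared sites were all fully methylated, the most for a peak with no other shared site. The peak at scaffold_3 from 616548 to 619736, downstream of the nearest start site by 80660 bases, had its 4 sites spread over 1167 bases with a median of 29 reads. The peak at scaffold_3 from 29448216 to 29454883, with its nearest start site at -3822 bases (the site lay upstream), had them spread over 1930 bases with 13 to 25 reads. The peak at scaffold_12 from 16325147 to 16331358 held them over 4513 bases with 11 to 45 reads, upstream of a start site whose transcript had no Pol II score. These 3 had their sites farthest apart among the 10 examined. In the peaks at scaffold_10 from 18710445 to 18715296 and scaffold_101 from 291225 to 291635 the 4 sites spanned 17 and 39 bases with 12 and 10 reads at every site, so the same reads may cover all 4 sites there. Of these 10 peaks only the one on scaffold_10 overlapped a Pol II PS5 peak.

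The 3 peaks with the highest numbers of fully methylated sites were wide and held many shared sites, so these numbers are to be read against the 11.3% over all shared sites. The peak at scaffold_53 from 1214148 to 1434317 had 22 among 177 shared sites, or 12.4%. The peak at scaffold_2 from 69731364 to 69931905 had 17 among 215, and the peak at scaffold_13 from 48344145 to 48360429 had 13 among 424 in 16284 bases. By the gene of the nearest start site, fully methylated sites were given to 7988 of 17676 genes, and 191 genes had 10 or more. The 10 genes with the most had 29 to 45 each, which was 8.98% to 27.4% of their shared sites, and their shared sites reached from 185256 to 699892 bases downstream. The gene ENSCPOG00000006220 on scaffold_160 led with 45 of 272 sites in 19 peaks, and ENSCPOG00000015501 on scaffold_1 had the highest share of the 10, with 31 of 113 sites in 22 peaks. Of the 12980 genes with 3 or more shared sites, 5917 had no fully methylated site and 23 had no other kind.

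The sites around a fully methylated site were highly methylated as well, most of all within 50 bases. These levels come from the assays that chose the sites and are given as a description. Shared sites in the same peak at 2 to 10 bases had means of 89.8% (RRBS) and 86.7% (ChIP-bisulfite), and 48.6% of them were themselves fully methylated. At 11 to 50 bases 37.8% were, at 51 to 200 bases 21.8%, and above 200 up to 1000 bases 12.5%. Around all other sites the same classes gave 4.19% at 2 to 10 bases and 3.96% above 200 up to 1000 bases. The mean levels above 200 up to 1000 bases were 59.5% and 49.7%, against 35.5% and 26.9% around all other sites. Above 1000 up to 5000 bases they were 57.9% and 48.65%, against 35.9% and 27.95% around all other sites. In that class the means around nearly full sites were 57.15% and 48.68%, so this difference was not particular to fully methylated sites. Around nearly full sites the neighbours at 2 to 10 bases averaged 84.4% and 82.1%, and 21.8% were fully methylated, while above 200 up to 1000 bases the means were 58.3% and 49.6%. Neighbours within a read length share reads, and long peaks with many sites give most pairs, so the pairs are not independent.

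**Figure D5:**
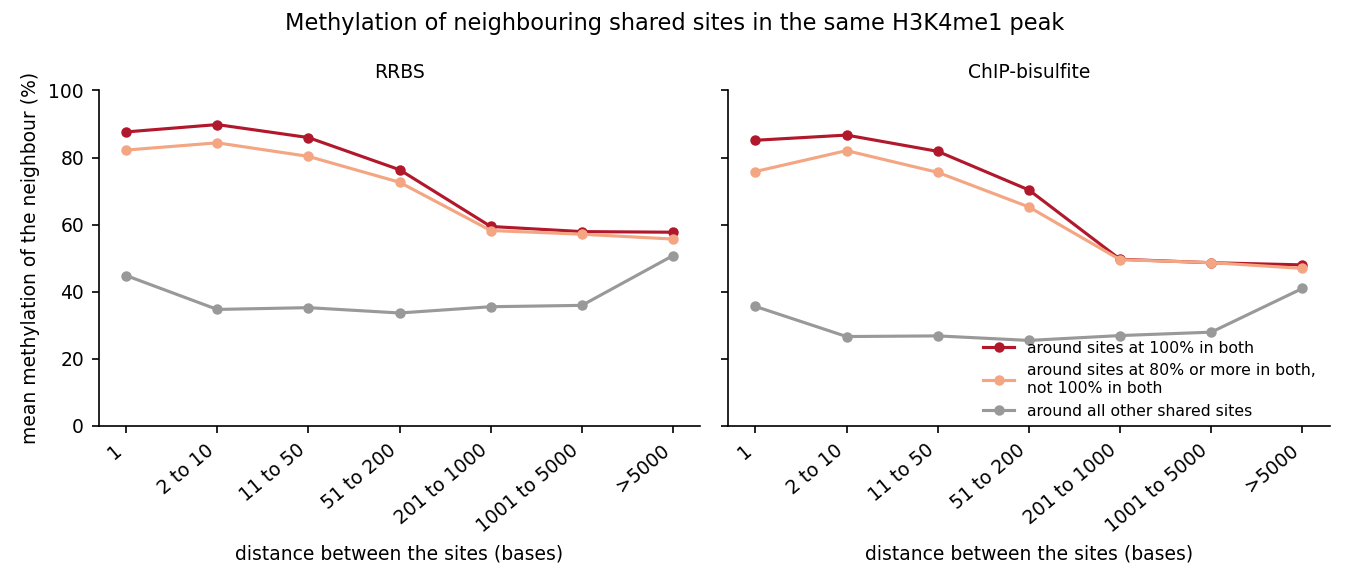
Mean methylation (y axis, percent) of shared CG sites in the same H3K4me1 peak by their distance in bases (x axis) from a fully methylated site, from a site at 80% or more in both assays but not 100% in both, and from any other shared site, in RRBS and in ChIP-bisulfite; points are means over pairs of sites. Around fully methylated sites the RRBS mean was 89.8% at 2 to 10 bases and 59.5% above 200 up to 1000 bases.

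Listed positions 1 base apart formed 9829 pairs, leaving out runs of more than 2 adjacent positions. Each pair was taken as the 2 C positions of a CG, 1 on each strand, with no sequence to check it. Before the runs were left out there were 10624 adjacent pairs with 532 overlaps between them, so not every adjacent pair was 1 CG. In 238 of these pairs both positions were fully methylated and in 889 only 1 was. Of the 1365 fully methylated positions with a listed partner, 34.9% had a fully methylated one, and 67.8% and 47.2% had a partner at 100% in ChIP-bisulfite and RRBS. The partners that were not fully methylated had a median of 100% in ChIP-bisulfite and 86% in RRBS.

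Fully methylated and fully unmethylated sites lay in the same peak in 2339 of the 13204 peaks with a fully methylated site (17.7%). Over all shared sites 15.4% were at 0% in both assays. The levels that are compared here also chose both kinds of sites, so what follows is a description. Of the 7648 peaks with 3 or more shared sites and a fully methylated one, 29.7% also held a site at 0% in both assays, against 45.8% of the 11093 such peaks without. These peaks were not matched for number of sites, and a fully methylated site cannot itself be at 0%. The shortest distance between the 2 kinds was a median of 1585 bases over 2339 peaks with both (middle 50% of peaks 762 to 3478), and it was 50 bases or less in 31 of them. No such distance was computed for another group. Of neighbours at 2 to 10 bases, 0.642% were at 20% or less in both assays around fully methylated sites and 0.700% around nearly full sites. Above 200 up to 1000 bases these shares were 16.35% and 16.87%, so the scarcity was not particular to fully methylated sites.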

How the data were processed

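Per the submitters' processing notes, which give no roles, RRBS (6 bisulfite libraries, reads of 50 and 100 bases) went with BSMAP 2.74, ChIP-bisulfite with Bismark 0.12.5, and ChIP-seq with Bowtie2 2.2.3. SAMtools 1.1 is named for every assay, methylKit for both bisulfite assays, and MACS2 and HOMER (4.6 for ChIP-seq) for those with ChIP. Positions are as the files give them, on a build not given in the sources used here. The authors deposited methylation levels per site in percent, as whole numbers. RRBS read counts per C position were deposited by the authors for positions with at least 10 reads. Reads per peak in the deposited table of averages are whole or estimated counts, and only its totals per line, peak bounds and CG numbers were used, since its ChIP-bisulfite lines are partly out of step with the peaks. Peak scores and the Pol II score per transcript are the authors'.

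The 241970 lines were reduced to 167387 sites, each with its nearest start site and the highest score of its transcripts. A site was in a peak if its position was at or after the start and before the end. Shares have exact Clopper-Pearson intervals and medians have binomial order-statistic intervals (Python 3.11.15, scipy 1.17.1). The overlap and interval routines were tested on simulated data. Named peaks were the 10 with the most fully methylated sites among peaks with no other shared site (16 tied at 4, taken in order of scaffold name and position), and named genes those with the most such sites. Of the 10 genes and 5 start sites chosen, 4 are named, since none of the 19244 gene IDs could be paired with a symbol. The fixed gene lists could therefore not be used. The sites and comparisons were chosen with earlier results of these data known. The list of sites that differ between the assays was not used. No sequence is shown, since no genome was used here.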

Additional observations from a re-analysis of the deposited data

How the results depend on the processing

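No paired analysis was possible because the deposited values pool the animals. Values are fully methylated minus other sites, in percentage points for shares. Of 56 alternative values, 3 of them numbers of sites with no interval, 27 stayed near the reported value (within its counting interval, where it had one), 28 moved farther and 1 reversed. Against nearly full sites only, the differences were -0.664 near start sites, -0.222 in Pol II PS5 peaks, 0.00167 for the transcript score, 2.29 in the outer 50% of the peak, -2.17 on the high score scale, -594 bases in median width and -6 in median reads. The reported values were -9.18, -1.88, 2.76, 7.03, -6.05, -1051 and -2. With each H3K4me1 peak counted once they were -4.49 near start sites, -1.002 in Pol II PS5 peaks, -1.55 on the high score scale and -3.5 reads, and width reversed to 625 bases. With 20 reads or more, 5828 sites were fully methylated, and Pol II PS5 peaks gave -2.46 and the transcript score 1.95. With 90% or more in both assays in place of 100%, 28942 sites qualified, with -905 bases in width and -1 read. A limit of 2000 bases gave -10.9 for start sites. Within 500 bases of a Pol II PS5 peak the difference was -6.03, and with the upper 50% of Pol II PS5 scores -1.24. The score of the nearest transcript gave 4.52, and 500 bases from an edge 9.52. High-scale peaks only gave -775 bases in width. Added after seeing the data, the bounds of the averages table gave -101 bases, others weighted to the same RRBS reads gave -1.54 in Pol II PS5 peaks, and others weighted to the same distances gave -1.24 in Pol II PS5 peaks, 0.386 for the transcript score and -5.50 on the high score scale. The causes were not tested. RRBS depth limits how far 100% can be told from nearly full methylation, and ChIP-bisulfite depth per site was not given.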
